A study of Mus musculus with 6 samples.

Results

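The genes described here are the potassium channel genes of the mouse heart outside the inward rectifier (Kcnj) family. They were matched by symbol, as rows of the count table named Kcn followed by a, ab, b, c, d, e, f, g, h, ip, k, ma, mb, n, q, s, t or v and a number. Kcna5, itself called higher as given below, was left out. The members were chosen with earlier results of these data known. The rule matched 71 of 30619 rows, of which 56 had enough counts to be tested. Poly(A) RNA had been sequenced from whole hearts of mouse embryos at E12.5, a stage of midgestation at which the ventricles form their chambers, labelled as mixed embryonic cardiac cells. The control group was 3 wild-type libraries, and the CKO group was 3 libraries titled as a TRIM28 conditional knockout, whose genotype label reads TRIM28 knockdown. TRIM28 is a co-repressor that zinc finger proteins bring to DNA. The Cre driver, the exons removed, the strain and the number of hearts in a library are nowhere stated in the labels. Separate animals or pools behind the libraries are not mentioned either, and the p-values then cover only the spread among these 6 libraries. Sex-linked transcripts, given below, differed among the libraries of each group, so these were not all repeats of the same sample. Which libraries came from separate animals is not known, and part of the spread may be technical.

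Potassium channels let potassium leave the cell and so pull the membrane back toward rest after each heartbeat. Voltage-gated pore subunits open on depolarisation and shape repolarisation, leak channels of the tandem-pore family set the resting potential, and calcium-activated channels open as cytosolic calcium rises. Auxiliary subunits form no pore and change how a pore subunit traffics, opens or closes. In heart muscle the ERG channel (Kcnh2) carries the rapid and the Kcnq1 channel with its partner Kcne1 the slow delayed rectifier current, and the Kv4 channels (Kcnd2, Kcnd3) with their partner Kcnip2 carry the fast transient outward current.

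The libraries held between 34400841 and 39763233 counts. Levels are given in CPM, counts scaled to the library size. Trim28 stood at 305, 391 and 443 CPM in the controls, and the libraries labelled CKO 1, 2 and 3 had 172, 314 and 165 CPM of it. The library labelled CKO 2 was thus between control values, so directions for the CKO group rest on the labels, and results are also given without it. Trim28 itself was not called (log2 fold change -0.81, SE 0.34, edgeR adjusted p = 0.34), nor without the library labelled CKO 2 (-1.17, edgeR adjusted p = 0.0763). It was called lower by limma-voom (adjusted p = 0.0165) and by edgeR without robust estimation (adjusted p = 0.0194). A ribosomal RNA row took 0.126% to 0.522% of the counts in controls and 0.563% to 0.79% in CKO. In the order of replicates 1, 2 and 3, Y-linked transcripts stood at 80.7, 0.026 and 124 CPM in controls and 99.4, 208 and 208 CPM in CKO. Xist, an X-linked transcript of female cells, had 24633, 36330 and 17569 counts in controls and 15232, 7 and 4 counts in CKO. Sex-linked expression was thus unbalanced between the groups. A fit with Y-linked expression as a covariate is given at the end. Cardiomyocyte markers were abundant throughout, with 8 of 8 over 1 CPM, none at 0 in a library and a sum of 25400 to 27300 CPM in controls and 26600 to 28300 CPM in CKO. Of these 8, Myh6, the alpha myosin heavy chain, was called higher (log2 fold change 0.33, edgeR adjusted p = 0.0103) and none lower. Of 6 endothelium markers, Cdh5, Kdr and Tek were called lower (log2 fold changes -0.30, -0.26 and -0.36) and none higher, none was at 0 in a library, and their sum was 1180 to 1230 CPM in controls and 970 to 1130 CPM in CKO, without overlap. Of 7 epicardium and fibroblast markers, Postn was called lower (log2 fold change -0.29) and none higher. The part of such differences in cell type markers in the potassium channel results was not tested.

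Hearts labelled CKO had 4 potassium channel genes at a higher level than controls and 0 at a lower level. The 4 were Kcnmb1, an auxiliary subunit of the large-conductance calcium-activated (BK) channel, Kcnq3, a pore subunit of the KCNQ family, Kcnk3, a tandem-pore leak channel, and Kcng2, a silent voltage-gated subunit. The increases were modest, with log2 fold changes (CKO over control) of 0.78, 0.63, 0.35 and 0.24. The other 52 tested members did not pass an adjusted p of 0.05 in the edgeR quasi-likelihood test. Among them, 9 had an unadjusted p under 0.05 in edgeR, 4 of these with a lower level in CKO. DESeq2 called 7 members higher and 0 lower. Without the library labelled CKO 2, edgeR called 5 higher and 1 lower, and without control replicate 1, control replicate 3 or CKO replicate 1 it called 2 higher and 0 lower. Calls over all genes moved as well, from 532 higher and 188 lower in the main test. They were 733 and 314 with DESeq2 and 1012 and 540 without the library labelled CKO 2. Without control replicate 1, control replicate 3 or CKO replicate 1 they were 255 and 67, 256 and 45, and 407 and 139.

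Of the tested members, 7.14% were called higher. Over all 17557 tested genes the test called 3.03% higher, 1.07% lower and 4.10% in either direction. The 2 groups were apart, with no overlap of their values, in 14 of the 56 members (25%) and in 22.1% of all tested genes, so that this share was near the background. CKO lay above control in 10 of the 56 (17.9%), against 11.5% of all tested genes, and below it in 4 of the 56 (7.14%), against 10.6%. An unadjusted p under 0.05 was reached by 13 members (23.2%) and by 17.8% of all tested genes. The median log2 fold change was 0.09 over the 56 members and 0.00349 over all tested genes. These counts belong to whole hearts, in which fewer cells of a type and less RNA per cell cannot be told apart.

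All 4 called members were among the 17 tested members with a mean of at least 5 CPM. The 39 tested members under 5 CPM held no call. In the range from 5 to 20 CPM 2 of 12 members were called, where the test called 4.52% of all genes, and above 20 CPM 2 of 5, where it called 5.81%. The standard error (SE) of the log2 fold change had a median of 0.0755 for the members above 20 CPM, 0.275 for those of 1 to 5 CPM and 0.586 for those under 1 CPM. At these depths an SE of the weaker members was of the size of the changes in the called members, so that such changes were not detectable in most of them.

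**Figure D1:**
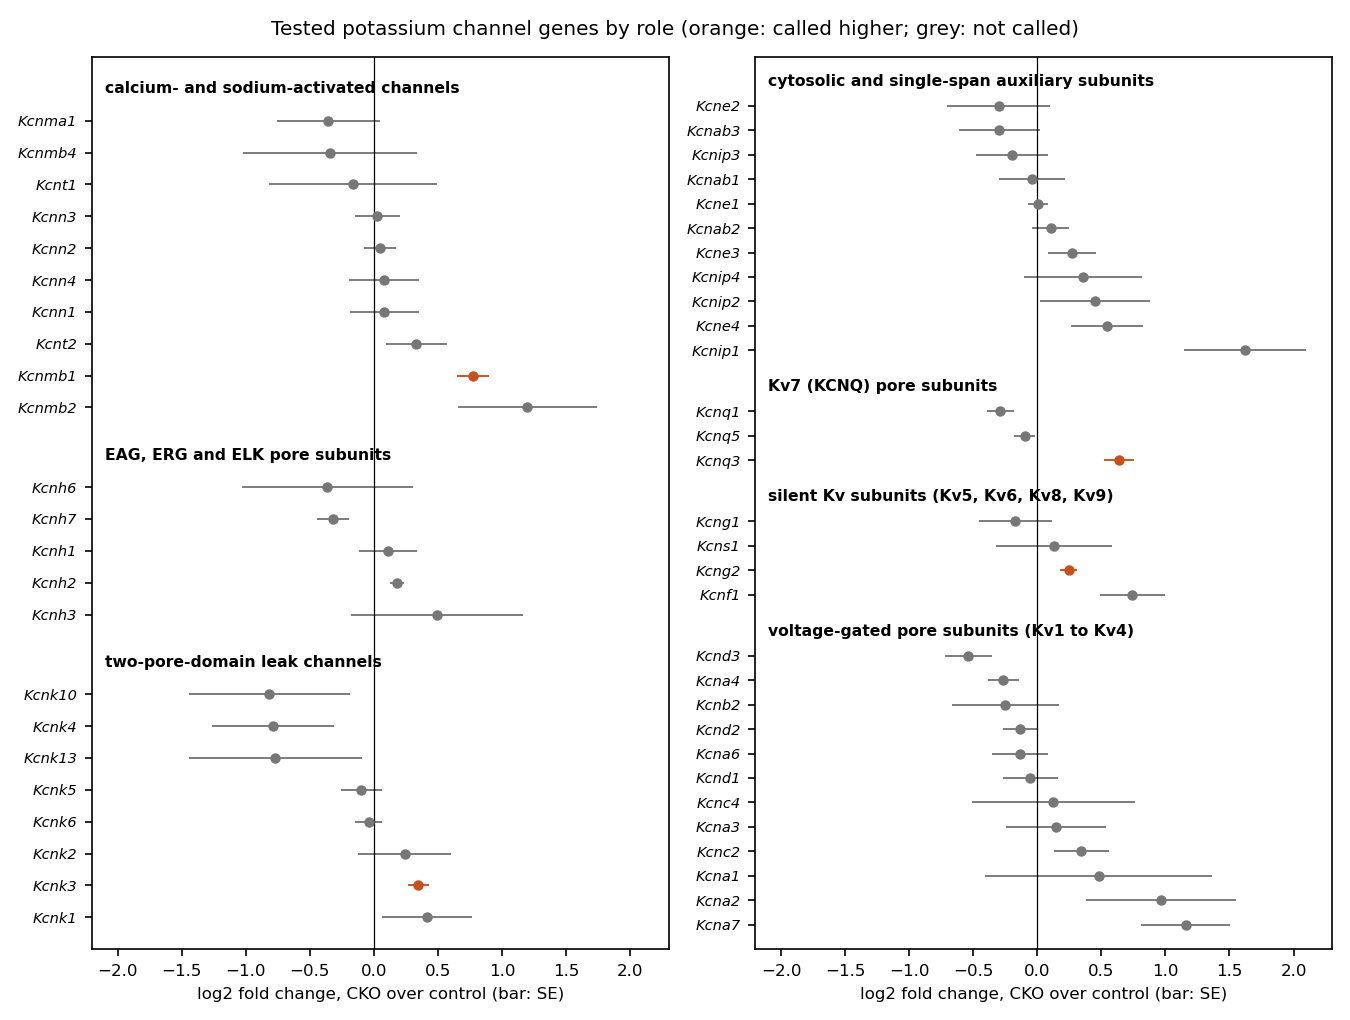
Log2 fold change (CKO over control, x axis) of 53 of the 56 tested potassium channel genes, grouped by role, with the SE as a bar. The 4 called genes, in orange, lie between 0.24 and 0.78, and the widest bars belong to genes with few counts.

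Levels of different genes were compared per kilobase of exon, since a longer transcript collects more reads. On this scale 4 genes stood above the rest. Kcnh2, the ERG pore subunit, had a mean of 40.4 CPM per kilobase over the 6 libraries, Kcng2 of 33.5, Kcnk3 of 22.8 and Kcne1, the auxiliary subunit of Kcnq1, of 15.2. Kcnh2 and Kcng2 were neighbours whose ranges met (36 to 44.7 and 27.6 to 37.8 CPM per kilobase), as did those of Kcng2 and Kcnk3 (17.7 to 28.1). Kcnk3 and Kcne1 did not overlap (13.7 to 16.3 for Kcne1), and neither did Kcne1 and the next gene, Kcnk6 (3.99 to 4.88). Together these 4 genes made up 69.6% to 72.9% of the summed CPM per kilobase of all 71 members in each library.

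All 3 CKO libraries exceeded all 3 controls in the summed level of all members. In controls it was 615, 663 and 624 CPM, and in CKO 721, 708 and 692 CPM, in the order of replicates 1, 2 and 3. Of the mean difference of 72.7 CPM, Kcnh2 gave 24.6, Kcnk3 21.8, Kcng2 16.9, Kcnmb1 9.1 and Kcnq3 5.43 CPM. The other 66 members summed to between 246 and 262 CPM in controls and between 249.7 and 253 CPM in CKO, ranges that overlapped. Since the 5 genes were set apart for their higher level in CKO, this overlap is a description and no test of the others.

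**Figure D2:**
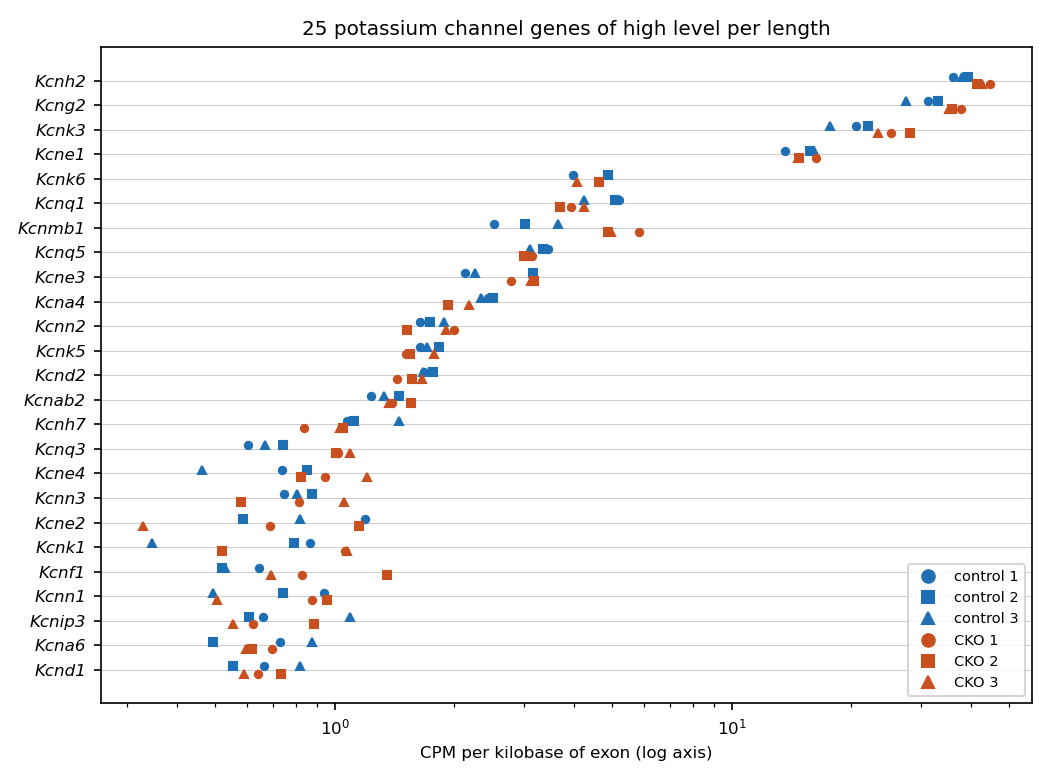
Level of the 25 highest potassium channel genes in CPM per kilobase of exon (x axis, log scale) in each library, blue for control and orange for CKO, with 1 marker shape per replicate number. Kcnh2, Kcng2, Kcnk3 and Kcne1 lie above 13 CPM per kilobase in every library, apart from the other members.

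Among the calcium- and sodium-activated channels, Kcnmb1 was higher in CKO and the 9 other tested members were not called. Kcnmb1 (ENSMUSG00000020155.2, chromosome 11, 33963013 to 33973641, plus strand, mm10) encodes the beta 1 subunit of the BK channel, which is best known from smooth muscle, where it raises the calcium sensitivity of the pore. In the controls, replicates 1 to 3 in order here and below, it stood at 10.5, 12.7 and 15.3 CPM, and in CKO at 24.5, 20.5 and 20.8 CPM. All CKO libraries lay above all controls. The group means of 12.8 ± 2.39 and 21.9 ± 2.26 CPM (SD, n = 3 each) gave a log2 fold change of 0.78 (SE 0.12, edgeR adjusted p = 0.00113). Without the library labelled CKO 2 the log2 fold change was 0.82 (edgeR adjusted p = 0.000163), and Kcnmb1 was called in all 6 fits that left out 1 library and in all 11 other ways of analysis.

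The promoter of Kcnmb1 is shown because this gene had the largest change among the called members, and it was the only 1 of the 4 with a window in the RefSeq promoter table used here (GRCm38.p6, the mm10 assembly), which held 49 of the 71 members. The 250 bases before its start lie on the plus strand at chr11:33962763-33963012, inside the annotated span of Kcnip1, which runs on the opposite strand, and outside its exons. Capitals mark the single match, on the minus strand, to the T-box half-site core CACACC.
Kcnmb1: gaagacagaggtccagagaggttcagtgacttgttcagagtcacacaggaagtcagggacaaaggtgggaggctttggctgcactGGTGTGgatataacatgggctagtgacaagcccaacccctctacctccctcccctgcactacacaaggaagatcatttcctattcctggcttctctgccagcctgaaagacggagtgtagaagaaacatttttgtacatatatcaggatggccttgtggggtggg
The window was searched on both strands for the CArG box of serum response factor, for CATTCC (the core bound by TEAD factors), for TNAAGTG (the NKX2-5 site) and for CACACC. No pair of these motifs overlapped in it. The letters CACACC occur in 16.3% of all 32851 promoter windows of this length, CATTCC in 12.6%, TNAAGTG in 10.1% and the CArG box in 1.47%. A match is a description of the letters and does not show a bound site. The window held 1 CG dinucleotide, and 50.8% of its bases were G or C.

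The pore subunit that Kcnmb1 accompanies was scarce. Kcnma1, the BK pore, had 1.03, 0.805 and 0.988 CPM in controls and 0.524, 0.726 and 0.935 CPM in CKO, and was not called (log2 fold change -0.36, SE 0.40, edgeR adjusted p = 0.72). The Kcnmb1 level per kilobase was 41.5 to 63.7 times that of Kcnma1 in controls and 90.1 to 190 times in CKO. In CPM without the length correction it was 10.2 to 15.7 times in controls and 22.2 to 46.8 times in CKO. This pair was chosen after the levels were seen. The other BK beta subunits were at low counts, with Kcnmb2 at 7 to 44 counts per library (log2 fold change 1.197, SE 0.54, edgeR adjusted p = 0.25), Kcnmb4 at 5 to 39 counts and Kcnmb3 at 0 to 4 counts. Kcnmb4 overlaps a pair of antisense genes over up to 20.8% of its exon length, and without knowledge of strand their reads cannot be told apart.

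Of 7 smooth muscle markers, 3 were called higher and none lower. All 7 were over 1 CPM and none was at 0 in a library, and their sum was 1730 to 1760 CPM in controls and 2340 to 2820 CPM in CKO. The called markers were Acta2, Myh11 and Cnn1, while Tagln, Smtn, Myocd and Mylk were not called. Of the uncalled markers, Tagln (log2 fold change 0.60, edgeR adjusted p = 0.28) and Mylk (0.23, edgeR adjusted p = 0.17) had all CKO libraries above all controls. Smtn (0.05, edgeR adjusted p = 0.72) and Myocd, the smooth muscle and heart co-activator (-0.20, edgeR adjusted p = 0.19), had overlapping groups. Embryonic heart muscle also expresses Acta2, which made up most of the sum. The part of smooth muscle cells in the Kcnmb1 result was not tested.

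The small- and intermediate-conductance calcium-activated channels were at similar levels in both groups. Kcnn2 was measured at 12.3, 13.0 and 14.1 CPM in controls and at 14.96, 11.3 and 14.2 CPM in CKO. Kcnn3 was measured at 7.8, 9.14 and 8.41 CPM in controls and at 8.5, 6.07 and 11.0 CPM in CKO. For both the CKO range enclosed that of the controls, with log2 fold changes of 0.05 (SE 0.12) and 0.02 (SE 0.18). Kcnn1 (0.08, SE 0.27) and Kcnn4, the channel of red and immune cells (0.08, SE 0.27), were not called, nor were the sodium-activated channel genes Kcnt1 (-0.16, SE 0.65) and Kcnt2 (0.33, SE 0.24).

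In the KCNQ family, Kcnq3 was higher in CKO and 3 other tested members were not called. Kcnq3 (ENSMUSG00000056258.9, chromosome 15, 65986387 to 66286642, minus strand, mm10) encodes a pore subunit best known from neurons, where it joins other KCNQ subunits in the channel of the M current, a slow potassium current that damps firing. It was measured at 8.91, 10.9 and 9.8 CPM in controls and at 14.96, 14.8 and 16.1 CPM in CKO. The 3 CKO libraries lay close together and above all controls. The means were 9.86 ± 0.988 and 15.3 ± 0.701 CPM (SD, n = 3 each), with a log2 fold change of 0.63 (SE 0.12, edgeR adjusted p = 0.00326), and of 0.66 (edgeR adjusted p = 0.00121) without the library labelled CKO 2. Kcnq3 was called in all 6 fits that left out 1 library. With the ribosomal RNA share as a covariate its log2 fold change was 0.77 and it was not called (edgeR adjusted p = 0.118). The share and the group cannot be told apart in these libraries, since the share of every CKO library exceeded that of every control.

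Kcnq5, a subunit that can join Kcnq3, was not called. It was measured at 26.5, 25.7 and 23.8 CPM in controls and at 24.2, 23.0 and 23.8 CPM in CKO (log2 fold change -0.10, SE 0.08, edgeR adjusted p = 0.61), and the groups overlapped. Neuron and neural crest markers were low, with 3 of 11 over 1 CPM, Chrna3 at 0 in at least 1 library, and sums that overlapped (18.2 to 25.7 CPM in controls and 19.5 to 28.5 CPM in CKO). None of the 10 tested was called in edgeR, and 4 of them had an unadjusted p under 0.05. Schwann cell and glia markers summed to 33.5 to 38.1 CPM in controls and 30.6 to 34.5 CPM in CKO. Of 5 tested, Erbb3 was called lower (means of 27.8 and 21.8 CPM, log2 fold change -0.35, edgeR adjusted p = 0.0461) and none higher. S100b was tested and not called, and Foxd3 had too few counts to be tested. Both, at 1 to 17 counts per library, lay above all controls in CKO. The part of neural and glial cells in the Kcnq3 result was not tested.

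Kcnq1, the pore of the slow delayed rectifier, was measured at 21.3, 20.8 and 17.3 CPM in controls and at 16.1, 15.1 and 17.4 CPM in CKO. CKO replicate 3 lay within the control range, and the log2 fold change of -0.29 (SE 0.11) did not pass (edgeR adjusted p = 0.14). Kcnq1 shares 2.96% of its exon length with the antisense gene Kcnq1ot1, which was not called either (edgeR adjusted p = 0.74). Its partner Kcne1 was measured at 43.9, 50.7 and 51.7 CPM in controls and at 52.3, 47.4 and 47.1 CPM in CKO. The groups overlapped, and the log2 fold change of Kcne1 was 0.01 (SE 0.08). Per kilobase, Kcne1 stood 2.62 to 3.8 times above Kcnq1 in controls and 3.45 to 4.13 times in CKO.

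Among the tandem-pore leak channels, Kcnk3 was higher in CKO and the 7 other tested members were not called. Kcnk3 (ENSMUSG00000049265.7, chromosome 5, 30588170 to 30625271, plus strand, mm10) encodes TASK-1, an acid-sensitive leak channel that in the adult heart is known from the atria. It was measured at 81.7, 87.4 and 70.3 CPM in controls and at 100.1, 112 and 93.0 CPM in CKO. All CKO libraries lay above all controls, with means of 79.8 ± 8.71 and 102 ± 9.57 CPM (SD, n = 3 each). This gave a log2 fold change of 0.35 (SE 0.08, edgeR adjusted p = 0.0291), and 0.27 (edgeR adjusted p = 0.0271) without the library labelled CKO 2. The call was lost without control replicate 1 (log2 fold change 0.36, edgeR adjusted p = 0.0971), control replicate 3 (0.26, edgeR adjusted p = 0.132) or CKO replicate 1 (0.35, edgeR adjusted p = 0.122). It was also lost with the ribosomal RNA share as a covariate (0.21, edgeR adjusted p = 0.705). Kcnk3 shares 5.76% of its exon length with Gm9899 on the opposite strand, which was not called (edgeR adjusted p = 0.86).

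The atrial potassium channel gene Kcna5, which the rule leaves out, was also called higher (log2 fold change 0.84, SE 0.11, edgeR adjusted p = 0.000175). It was measured at 16.0, 18.5 and 19.3 CPM in controls and at 36.1, 26.9 and 33.1 CPM in CKO. The inward rectifier gene Kcnj3, also outside the rule, had the opposite sign and was not called (-0.30, SE 0.10, edgeR adjusted p = 0.12). Kcnj5, another inward rectifier gene, was called higher (0.32, SE 0.07, edgeR adjusted p = 0.0192). Of 12 tested inward rectifier and sulfonylurea receptor genes, 6 had a positive sign, 5 of them called, and 6 a negative sign. Of the other leak channels, Kcnk6 was measured at 16.5, 20.3 and 20.2 CPM in controls and at 19.2, 19.3 and 16.9 CPM in CKO, with a log2 fold change of -0.04 (SE 0.11). Kcnk5, an alkaline-activated channel, was measured at 5.6, 6.23 and 5.82 CPM in controls and at 5.13, 5.26 and 6.06 CPM in CKO (-0.10, SE 0.16). The groups overlapped for both. The mechanosensitive channels Kcnk2 (0.24, SE 0.36), Kcnk4 (-0.79, SE 0.48) and Kcnk10 (-0.82, SE 0.63) had few counts and were not called, as were Kcnk1 (0.41, SE 0.35) and Kcnk13 (-0.77, SE 0.67). Kcnk4 shares 13.1% of its exon length with Catsperz on the same strand, so its counts are uncertain.

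Silent subunits form channels only together with other pore subunits. Of the 10 silent subunit genes 4 were tested, and Kcng2 was called higher. Kcng2 (ENSMUSG00000059852.7, chromosome 18, minus strand) was measured at 93.5, 99.1 and 82.4 CPM in controls and at 113, 107 and 105.5 CPM in CKO. The CKO libraries lay above the controls, with means of 91.6 ± 8.51 and 108.5 ± 3.92 CPM (SD, n = 3 each). This gave a log2 fold change of 0.24 (SE 0.07, edgeR adjusted p = 0.0409), and 0.25 (edgeR adjusted p = 0.0216) without the library labelled CKO 2. Kcng2 lost its call without control replicate 1 (0.25, edgeR adjusted p = 0.122), control replicate 3 (0.17, edgeR adjusted p = 0.263), CKO replicate 1 (0.21, edgeR adjusted p = 0.118) or CKO replicate 3 (0.26, edgeR adjusted p = 0.11). It was not called without scaling factors (adjusted p = 0.0563), without robust estimation (0.0535), with limma-voom (0.0554) or with the ribosomal RNA covariate (0.811).

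Kcng2 shares 9.1% of its exon length with D330025C20Rik on the opposite strand, which was not called and had means of 6.83 ± 0.505 and 4.92 ± 0.34 CPM in the control and CKO groups (SD, n = 3).

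Kcnf1, a silent subunit of the Kv5 type, was measured at 3.09, 2.49 and 2.54 CPM in controls and at 3.97, 6.48 and 3.31 CPM in CKO. The groups did not overlap, but the library labelled CKO 2 stood apart from the other CKO libraries, and the log2 fold change of 0.74 (SE 0.25) was not called (edgeR adjusted p = 0.11). Kcng1 was measured at 1.98, 2.21 and 1.74 CPM in controls and at 1.57, 2.24 and 1.49 CPM in CKO, with overlapping groups. Kcns1 was at 0.427 to 1.4 CPM (log2 fold change 0.13, SE 0.45).

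None of the EAG, ERG and ELK genes was called by edgeR among 5 tested, of which 2 had an unadjusted p under 0.05. Kcnh2 (ENSMUSG00000038319.14, chromosome 5, 24319589 to 24351604, minus strand, mm10) was the strongest, at 174, 191 and 185 CPM in controls and at 216, 201 and 206.5 CPM in CKO. The CKO libraries lay above all controls, and the log2 fold change was small, at 0.18 (SE 0.05). It did not pass in edgeR (adjusted p = 0.0666), whereas DESeq2 called it (adjusted p = 0.0343), as did edgeR without the library labelled CKO 2 (0.20, edgeR adjusted p = 0.0204). Without each of the other libraries the edgeR adjusted p was 0.11 to 0.308. Its auxiliary subunit Kcne2 ranged from 1.04 to 2.11 CPM in controls and from 0.581 to 2.03 CPM in CKO (log2 fold change -0.30, SE 0.40).

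Kcnh7, another ERG gene, had the opposite sign. It was measured at 16.3, 17.1 and 22.0 CPM in controls and at 12.7, 16.0 and 15.7 CPM in CKO. The groups did not overlap, and the log2 fold change of -0.32 (SE 0.13) was not called (edgeR adjusted p = 0.18). Kcnh7 shares 4.57% of its exon length with Gca on the opposite strand, which was not called (log2 fold change -0.28, SE 0.10). Kcnh1, an EAG channel, was measured at 2.64, 4.31 and 5.0 CPM in controls and at 4.31, 4.94 and 3.64 CPM in CKO, and the groups overlapped. Kcnh3 and Kcnh6 were at 5 to 24 counts per library.

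**Figure D3:**
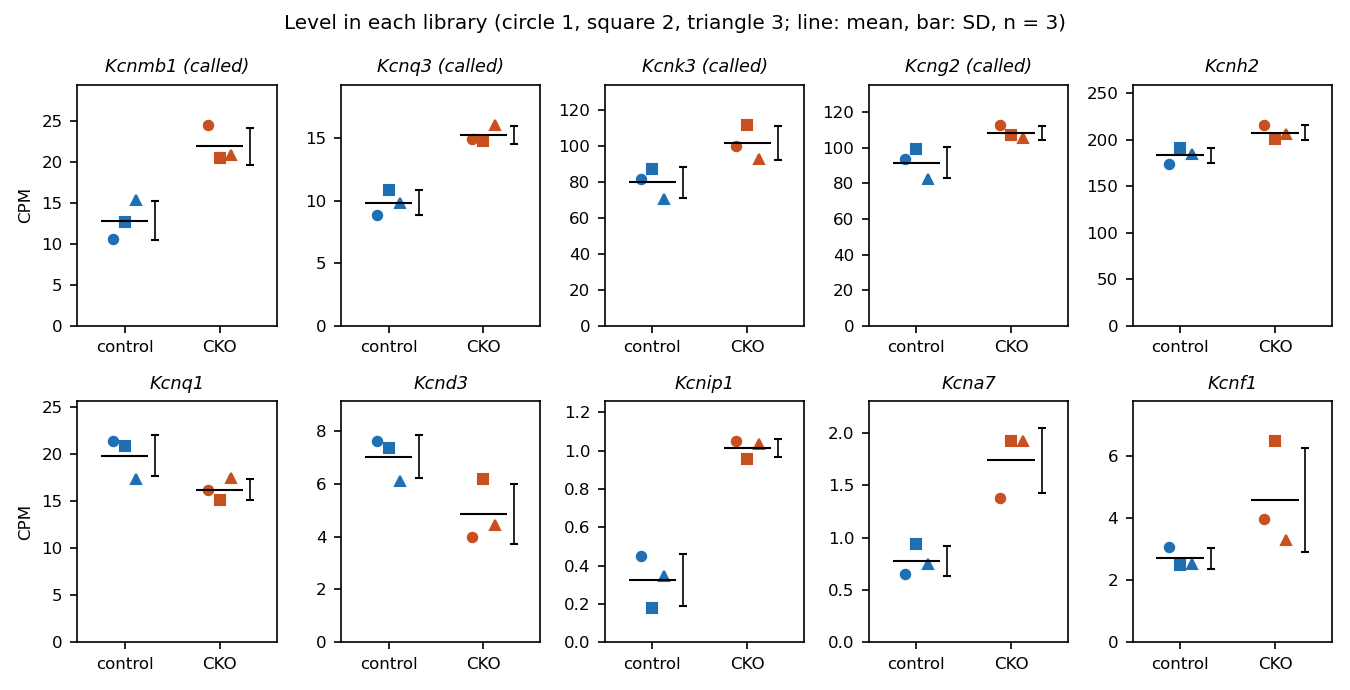
CPM in each library (y axis, from 0) for the 4 called genes and 6 genes that were not called, with the group mean as a line and the SD (n = 3) as a bar. The groups are apart in all 4 called genes and in Kcnh2, Kcnip1, Kcna7 and Kcnf1, and they overlap in Kcnq1 and Kcnd3.

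The voltage-gated pore subunits of the Kv1 to Kv4 families held no edgeR call among 14 tested, of which 3 had an unadjusted p under 0.05. Kcna4, which carries a slow transient outward current, was measured at 11.7, 12.1 and 11.3 CPM in controls and at 9.35, 9.3 and 10.5 CPM in CKO, without overlap (log2 fold change -0.27, SE 0.12, edgeR adjusted p = 0.25). Kcnd2 was measured at 8.66, 9.12 and 8.6 CPM in controls and at 7.4, 8.08 and 8.57 CPM in CKO, with no overlap by a narrow margin (log2 fold change -0.13, SE 0.13, edgeR adjusted p = 0.68). The other Kv4 gene of heart muscle, Kcnd3, was measured at 7.6, 7.35 and 6.09 CPM in controls and at 4.0, 6.16 and 4.42 CPM in CKO. The library labelled CKO 2 lay inside the control range. The Kcnd3 log2 fold change was -0.54 (SE 0.18) and did not pass (edgeR adjusted p = 0.11), but it was called lower at -0.74 (edgeR adjusted p = 0.0139) without that library. Kcnd3, Kcna7 and Kcnip1 are given in each library because of their values.

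Kcna7, a Kv1 gene of skeletal and heart muscle, was measured at 0.652, 0.935 and 0.748 CPM in controls and at 1.38, 1.92 and 1.92 CPM in CKO. The groups did not overlap, and the log2 fold change of 1.16 (SE 0.35) was not called in edgeR (adjusted p = 0.0666) and passed in DESeq2 (adjusted p = 0.0412). Kcna6 was measured at 4.34, 2.93 and 5.21 CPM in controls and at 4.14, 3.69 and 3.56 CPM in CKO, with overlapping groups. An antisense gene, not analysed here, covers 39.6% of the Kcna6 exon length. Skeletal muscle markers summed to 15.3 to 16.9 CPM in controls and 26.8 to 33.8 CPM in CKO, which lay in Tnnt3, the 1 called gene of 7, while Myod1, Myf5 and Pax7 were at 0 in at least 1 library. The part of skeletal muscle cells in the Kcna7 values was not tested.

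The other Kv genes were not called. Among them were the neuronal channels Kcna1 (log2 fold change 0.48, SE 0.88) and Kcna2 (0.96, SE 0.59), the lymphocyte and macrophage channel Kcna3 (0.15, SE 0.39), and the fast-gating channels Kcnc2 (0.34, SE 0.21) and Kcnc4 (0.13, SE 0.64). Kcnd1 (-0.06, SE 0.22) and Kcnb2 (-0.25, SE 0.42) also did not pass. Macrophage markers summed to 76.1 to 82.4 CPM in controls and 86.8 to 99.3 CPM in CKO, with 6 of 6 over 1 CPM, none at 0 in a library and 1, C1qa, called higher. Their part in the Kcna3 and Kcnn4 values was not tested.

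The cytosolic and single-span auxiliary subunits are the Kcnab, Kcne and Kcnip genes. The BK beta subunits, with the called Kcnmb1, were counted above with the calcium-activated channels. All 11 cytosolic and single-span genes were tested and none was called by edgeR, with 1 at an unadjusted p under 0.05. Besides Kcne1, the strongest of these per kilobase were Kcne3 and Kcnab2. Kcne3, a single-span subunit that can hold Kcnq1 open, was measured at 3.79, 5.61 and 4.01 CPM in controls and at 4.94, 5.67 and 5.56 CPM in CKO (log2 fold change 0.27, SE 0.19). Kcnab2, a cytosolic beta subunit of Kv1 channels, was measured at 6.88, 8.1 and 7.43 CPM in controls and at 7.78, 8.69 and 7.63 CPM in CKO (0.10, SE 0.14). The groups overlapped in both. Kcne4 (0.54, SE 0.28), Kcnab1 (-0.04, SE 0.26) and Kcnab3 (-0.30, SE 0.32) did not pass either.

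The Kv4 partners of the Kcnip family were weak in these hearts. Kcnip2, which joins the Kv4 pore in the adult ventricle, had 0.502, 0.571 and 0.721 CPM in controls and 0.828, 0.697 and 0.91 CPM in CKO (log2 fold change 0.45, SE 0.43). Kcnip3 was the strongest of the 4 per kilobase, with 1.97 to 3.87 CPM over the libraries (-0.20, SE 0.28), and Kcnip4 was at 0.338 to 1.28 CPM (0.36, SE 0.46). Kcnip1 had the largest log2 fold change of all tested members, at 1.62 (SE 0.47). It was measured at 0.452, 0.182 and 0.347 CPM in controls and at 1.05, 0.959 and 1.04 CPM in CKO, that is at 7 to 41 counts per library. The groups did not overlap, and it was called by DESeq2 (adjusted p = 0.0392) but not by edgeR (adjusted p = 0.0599).

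Kcnip1 (chromosome 11, 33629339 to 33993152, minus strand) and Kcnmb1 are neighbours of an unusual kind, since Kcnmb1 lies within the span of Kcnip1 on the opposite strand. The annotation gives no exon bases shared by both. Nothing says whether the counting used strand. The tested protein-coding genes on either side were not called, with log2 fold changes of 0.11 (SE 0.15) for Ranbp17 and 0.53 (SE 0.26, edgeR adjusted p = 0.30) for Lcp2. Nor were the nearest tested protein-coding genes on either side of Kcnq3 (Efr3a at -0.02 and Tmem71 at 0.13), Kcnk3 (Otof at 0.27 and Slc35f6 at 0.04) and Kcng2 (Pqlc1 at -0.15 and Ctdp1 at 0.07).

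The 15 members that were not tested had between 1 and 67 counts over all 6 libraries, no more than 31 counts in any library, and 12 of them had at least 1 library at 0. They included Kcnc1, Kcng3, Kcng4, Kcnh4, Kcnh5, Kcnh8, Kcnk7, Kcnk9, Kcnk12, Kcnmb3, Kcns2, Kcns3, Kcnv1 and Kcnv2. Several of these are known from brain, retina or sensory cells. Kcns3, a silent subunit, had the most, at 7, 1 and 7 counts in controls and 31, 18 and 3 counts in CKO, and the groups overlapped.

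**Figure D4:**
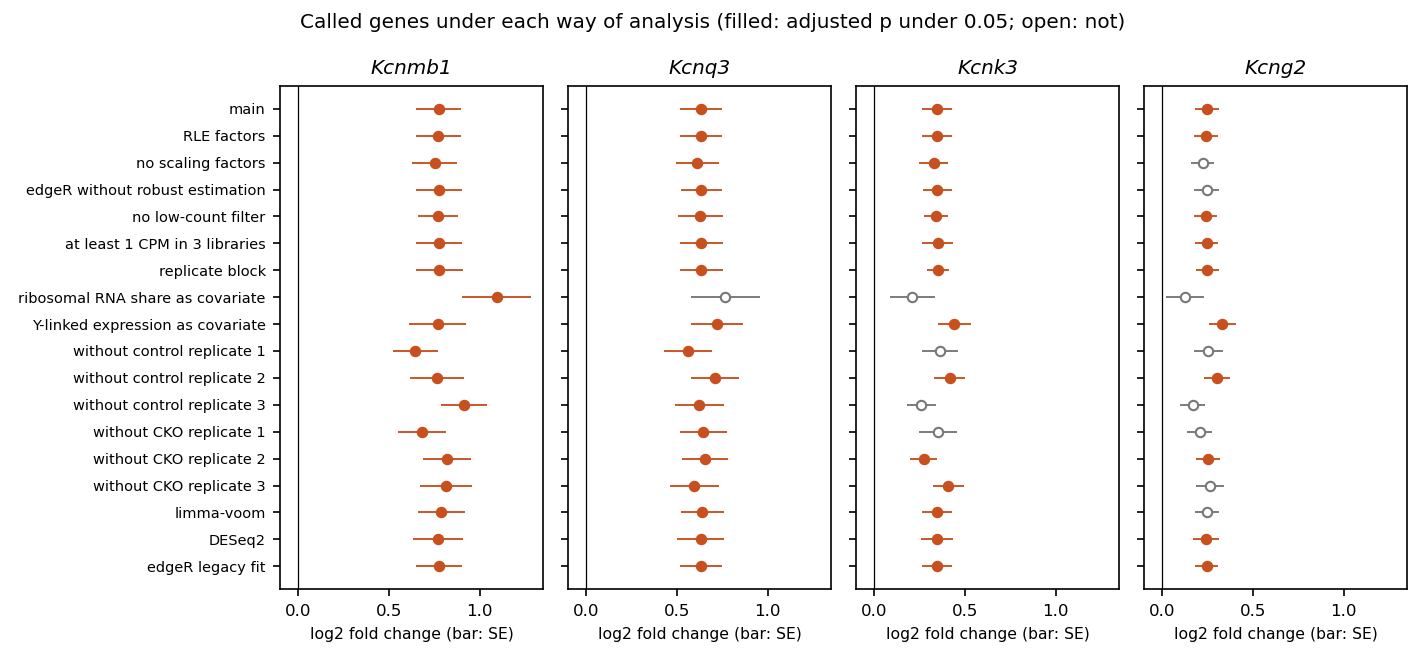
Log2 fold change (CKO over control, x axis) with its SE for the 4 called genes under the main test and 17 other ways of analysis (rows), filled where the adjusted p was under 0.05. Kcnmb1 is filled in every row, Kcnq3 in all but the ribosomal RNA covariate, and Kcnk3 and Kcng2 are open in several rows that leave out 1 library.

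Other genes of the same physiology were read from lists chosen with earlier results of these data known. Of 12 tested genes of inward rectifiers and sulfonylurea receptors, 5 were called higher and none lower. They were Kcnj6, Kcnj4, Kcnj5 and Kcnj11 and the receptor gene Abcc8, and the median log2 fold change of the list was 0.04. Of 25 tested genes of depolarising channels and exchangers, Hcn4, the pacemaker channel, was called higher and none lower (median 0.05), and Slc8a1, the sodium-calcium exchanger (0.15, edgeR adjusted p = 0.0911), and the calcium channel subunit Cacnb3 (0.29, edgeR adjusted p = 0.0933) did not pass. No call was made among 9 tested genes of the sodium-potassium pump (median -0.01) or among 9 tested partners of potassium channels outside the rule (median -0.04), in which 3 and 2 genes had an unadjusted p under 0.05 in edgeR. These partners included Dpp6, which joins Kv4 channels, with mean levels of 3.82 and 6.17 CPM in control and CKO (0.69, SE 0.24, edgeR adjusted p = 0.13).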

How the data were processed

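The authors deposited 1 table of raw read counts by gene symbol, with a column for each of 6 libraries (raw counts per the labels), on the mm10 build per the submitters' processing notes. Neither the aligner, the counter and its annotation nor the use of strand is given in the sources used here. Positions, exon lengths (the union of annotated exons) and overlaps came from GENCODE M21 (mm10), in which all 71 members matched 1 gene each, and 4 further genes of the rule (Kcna10, Kcnk15, Kcnk16 and Kcnk18) are not rows of the table and were not analysed here. The promoter came from RefSeq (GRCm38.p6).

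The test was run on the whole table in edgeR 4.0.16 (R 4.3.3). Genes were kept by filterByExpr (minimum count 10, total 15), which left 17557 genes, TMM factors scaled the libraries, and glmQLFit (robust, the fit new in this version of edgeR) and glmQLFTest were run with group as the only term, two-sided, with Benjamini-Hochberg adjustment over all tested genes. Calls were made at an adjusted p under 0.05. SE is the log2 fold change over the square root of F. CPM used TMM-scaled library sizes. Called members and the 3 strongest of each role per kilobase are given in every library, and a few members counted here are not reported by name. Members and lists were chosen with earlier results of these data known.

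Alternatives were DESeq2 1.42.0, limma-voom (limma 3.58.1), RLE factors or none, no robust estimation, no filter or 1 CPM in 3 libraries, a replicate block, each library left out, and covariates for ribosomal RNA and Y-linked expression, and, chosen after seeing the data, edgeR's legacy fit. Simulated counts with known changes, of which 17150 genes were tested, gave recovery of 16% at 1.2-fold, 62% at 1.5-fold, 90% at 2-fold and 98% at 4-fold. Of the 143 simulated calls, 6.99% were unchanged genes, while the real data gave 720 calls. The rates are not split by level. They do not describe the 39 of 56 tested members under 5 CPM, whose SE was larger. No 2 libraries held identical counts.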

Additional observations from a re-analysis of the deposited data

How the results depend on the processing

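Under 17 alternatives no called potassium channel gene turned its direction. Of 935 values of tested members 13 lost and 10 gained a call, but only the values of the 4 called genes could lose one. Kcng2 kept its call in 2 of 6 fits that left out 1 library and in 7 of 11 other alternatives. Kcnk3 kept it in 3 of 6 and 10 of 11, Kcnq3 in 6 of 6 and 10 of 11, and Kcnmb1 in all. The 4 higher calls became 8 with no low-count filter (adding Kcna7, Kcnf1, Kcnh2 and Kcnip1, with 1 lower, Kcnd3), 7 with DESeq2 and 1 (Kcnmb1) with the ribosomal RNA covariate. Leaving out 1 library gave 2 to 5 higher and 0 to 1 lower members. It gave 2 higher without control replicate 1, control replicate 3 or CKO replicate 1, and the 1 lower without the library labelled CKO 2. Over all genes, 863 higher and 388 lower were called with no filter, 53 and 3 with the ribosomal RNA covariate and 274 and 36 with the Y-linked covariate, DESeq2 called 314 lower, and leaving out 1 library gave 255 to 1012 higher and 39 to 540 lower, against 532 and 188. With the Y-linked covariate the same 4 members were called. The cause of these shifts was not tested. The replicate number as a block also left 4 higher and 0 lower members, and 518 and 158 of all genes. Libraries of the same number did not deviate together (correlations across genes of 0.00762, -0.00855 and -0.00469). These correlations showed no pairing by number, but they cannot exclude one that affects few genes. Counts limit the 39 tested members under 5 CPM most.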
